A study of Gallus gallus with 36 samples.

Results

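The comparison described here is that of the chicken pineal gland with the retina at circadian time 4 (CT4), 4 h into the subjective day, which rests on 6 of the 36 RNA-sequencing libraries of the series, 3 of each tissue. It is centred on transcripts whose difference between the tissues at CT4 departed from their mean difference over the other 5 times (CT0, CT8, CT12, CT16 and CT20, 30 libraries). Of 16831 transcripts tested, 554 departed in this way. The birds (Gallus domesticus, from Hyline) were 1 day old on arrival, lived for 9 days under cycles of 12 h light and 12 h dark, and were sampled on day 10 in constant darkness, so all groups share that history and none received any other agent. A pineal library was made from 3 pooled glands and a retinal library from 1 retina. Nothing in the labels says that libraries of a group came from separate cultures or birds beyond this, so p-values measure the spread between these libraries.

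The avian pineal gland and retina both hold photoreceptors and a circadian clock, and both make melatonin, the hormone and signal of night. In the clock, CLOCK or its relative NPAS2 pairs with ARNTL or ARNTL2 to switch on the genes of the PER and CRY repressors, which then shut that pair down, and D-box factors such as TEF, HLF and NFIL3 form a linked loop. Melatonin is made from tryptophan through TPH1, DDC, AANAT and ASMT, with AANAT known as the step that follows the time of day.

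Estimated counts summed to between 6583163 and 8742948 per pineal library at CT4 and between 5393030 and 7102938 per retinal library. Levels are CPM, counts scaled to library size with the trimmed mean of M values, and differences are log2 values from edgeR's quasi-likelihood fit, called at an adjusted p under 0.05. The tissue labels held at CT4. OPNP, the pineal opsin pinopsin, stood at 586, 576 and 574 CPM in the pineal libraries and at 1.16, 1.87 and 0.577 CPM in the retinal libraries. GAD67, the enzyme that makes GABA in inhibitory neurons of the retina, stood at 4.15, 3.44 and 3.67 CPM in the pineal gland and at 1350, 1180 and 1310 CPM in the retina. The groups did not overlap for either gene, and both, like TTR, were chosen after their values were seen. The pineal gland also carried TTR, the thyroid hormone carrier of choroid plexus and pigment epithelium, at 24900, 27900 and 44100 CPM. In bulk tissue, fewer cells of a type and less RNA per cell cannot be told apart, which touches every difference below.

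At CT4, 11233 transcripts (66.7% of those tested) differed between the tissues: 5853 (34.8%) were higher in the pineal gland and 5380 (32.0%) in the retina. The 3 pineal libraries all lay above the 3 retinal libraries for 6163 transcripts (36.6%) and all below them for 5695 (33.8%). By fitted log2 value, the largest differences toward the pineal gland were those of TINAGL1, KCNQ1, KL, FOLR1 and AVPR2. TINAGL1 is a basement membrane protein, KCNQ1 a potassium channel, KL is known as klotho, FOLR1 is a folate receptor and AVPR2 a vasopressin-type receptor. TINAGL1 stood at 123, 108 and 132 CPM in the pineal gland and had no count in any of the 3 retinal libraries. Against a floor of 3 counts over those libraries (0.156 CPM) it was at least 777-fold higher. The same bound was 432-fold for KCNQ1, 331-fold for KL, 274-fold for FOLR1 and 249-fold for AVPR2. Apart from that of TINAGL1, these bounds lay below the 496-fold of OPNP, which had counts in both tissues. They do not settle the order. KL and FOLR1, like TTR, varied widely between pineal libraries of some other times. At CT12 the 3 genes averaged 19.3 ± 27.8, 14.2 ± 15.6 and 8810 ± 13300 CPM (SD, n = 3). Whether KL and FOLR1 came from the same cells as TTR was not tested. Toward the retina, the same ranking gave CACNA1B, a presynaptic calcium channel subunit, VSTM2A, GRIN1, GUCA1B and SLC32A1. CACNA1B and VSTM2A had no count in the pineal libraries at CT4 and were at least 326-fold and 274-fold higher in the retina. These bounds do not settle the order either. GRIN1, a subunit of NMDA-type glutamate receptors, GUCA1B, an activator of photoreceptor guanylate cyclase, and SLC32A1, the vesicular transporter of GABA and glycine, averaged 354 ± 13.2, 212 ± 5.85 and 190 ± 8.17 CPM in the retina (SD, n = 3) and had 2 counts each over the 3 pineal libraries. None of the 10 genes ranked here had a called departure at CT4 in edgeR's test (adjusted p between 0.163 and 1). DESeq2 called that of GRIN1 (-5.27, adjusted p = 0.0172). With 0 or 2 counts in 1 tissue the departure is poorly estimated, with an SE from 0.872 (GUCA1B) to 24660 (CACNA1B). The missing calls therefore do not show that the difference was unchanged. The departure of GRIN1 was called in 1 of 16 alternative settings, and its pineal level at other times ran from 0 to 19.1 CPM.

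The difference at CT4 departed from that over the other times for 554 transcripts (3.29%). Of these, 157 (0.933%) moved toward the pineal gland, meaning that the pineal gland was relatively higher at CT4 than at other times, and 397 (2.36%) moved toward the retina. The median size of a called departure was 0.422 toward the pineal gland and 0.538 toward the retina on the log2 scale, and 18 and 63 transcripts reached a size of 1. The median departure over all tested transcripts was -0.00499. A tissue difference was called at CT4 and not over the other times for 11 transcripts toward the pineal gland and 22 toward the retina. At CT4, 293 of the 397 toward the retina were higher in the retina and 65 were still higher in the pineal gland. Of the 157 toward the pineal gland, 90 were higher in the pineal gland at CT4 and 36 were still higher in the retina. Both sets were chosen by a test that uses the CT4 difference, so these majorities follow in part from the choice. Over the other times, which the test also uses, 240 of the 397 were higher in the retina and 135 in the pineal gland. Of the 157, 70 were higher there in the pineal gland and 76 in the retina. On the deposited FPKM values, tested with limma, the median tissue difference of all transcripts at CT4 was 0.26 with a pseudocount of 0.1, against 0.0355 in the counts, and 255 departures pointed toward the pineal gland and 271 toward the retina. The predominance of departures toward the retina was seen in the counts and not in the FPKM values.

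**Figure D1:**
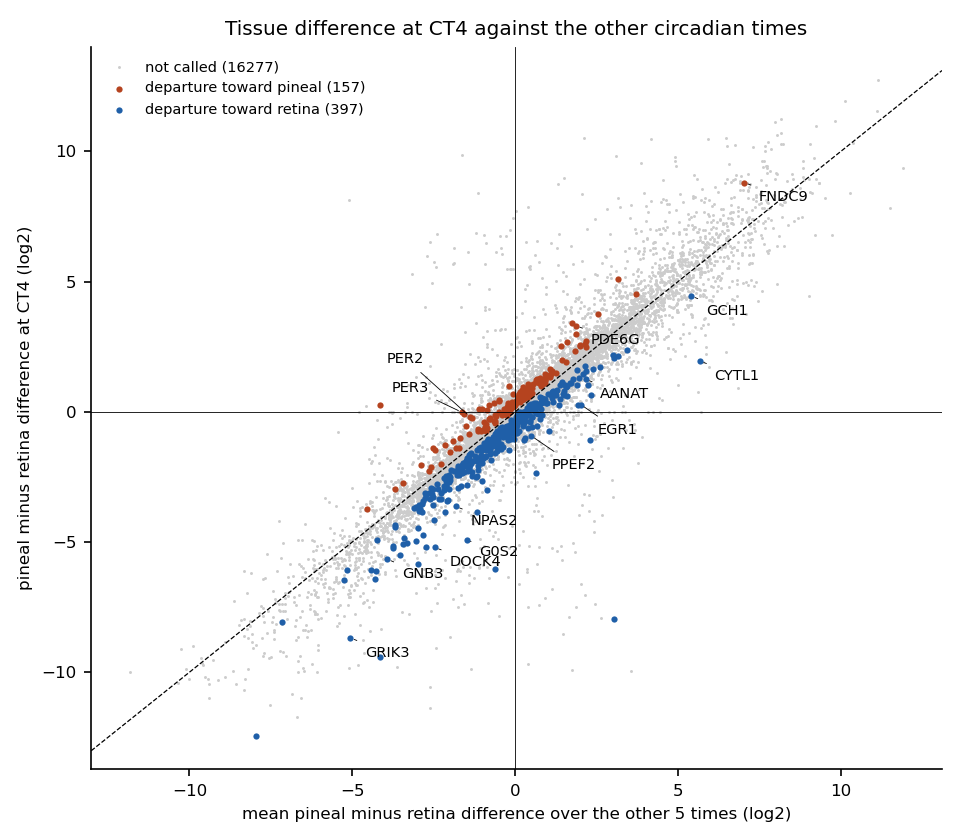
Each point is a transcript, with its mean pineal minus retina difference over the other 5 times on the x axis and its difference at CT4 on the y axis, both log2; the dashed line marks equal differences. The 157 transcripts called toward the pineal gland lie above the line and the 397 called toward the retina below it, while most transcripts lie along it.

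The departures came mostly from the pineal gland. Within a tissue, CT4 was set against the mean log2 level of the other 5 times. By that test 563 transcripts (3.35%) were higher and 788 (4.68%) lower in the pineal gland at CT4, while 93 (0.553%) were higher and 42 (0.250%) lower in the retina. Of the 157 departures toward the pineal gland, 127 had a called change in the pineal gland alone, 8 in the retina alone, 6 in both and 16 in neither. Of the 397 toward the retina the same counts were 329, 27, 9 and 32. A change called in only the pineal gland is not by itself a difference between the tissues; the departure is the test of that difference.

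**Figure D2:**
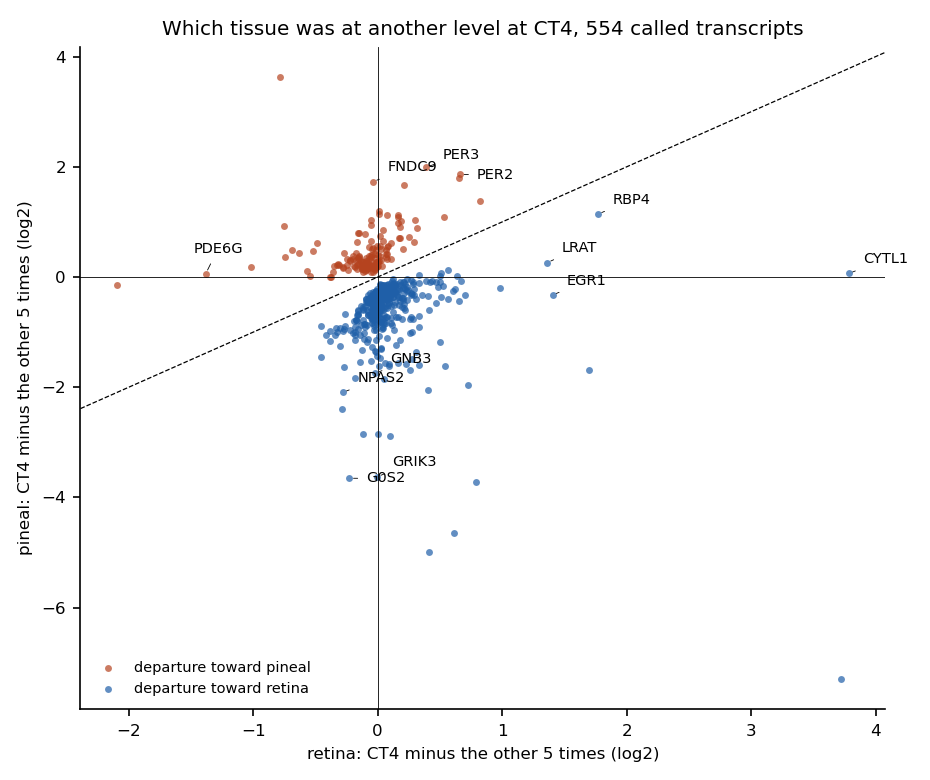
The 554 called transcripts by their change at CT4 against the other 5 times in the retina (x axis) and in the pineal gland (y axis), both log2; on the dashed line both tissues change alike. Points spread along the vertical axis, as for G0S2, NPAS2, PER3 and FNDC9, and few lie far out along the horizontal axis, among them CYTL1, RBP4, EGR1, LRAT and PDE6G.

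Few departures were called against the neighbouring times alone. The tissue difference was at its extreme among the 6 times at CT4 for 118 of the 157 transcripts toward the pineal gland, at CT0 for 36 and at CT8 for 3. Toward the retina these counts were 265, 118 and 14 of 397, and no transcript had its extreme at CT12, CT16 or CT20. The transcripts were chosen for a CT4 difference away from the mean of the other times. These counts therefore follow in part from the choice and do not test whether the difference peaks at CT4. When CT4 was set against the mean of CT0 and CT8 alone, 2 transcripts departed toward the pineal gland and 20 toward the retina, 21 of them among the 554. Departure calls computed the same way numbered 938 for CT0, 144 for CT8, 369 for CT12, 599 for CT16 and 279 for CT20. At the threshold, PPP1CB (adjusted p = 0.04974) and LRAT (0.04985) lay just inside and PANK4 (0.0503) and MAP4 (0.0505) just outside.

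The clock showed opposite departures for its activators and repressors. Among 6 measured activators, 4 departed toward the retina (2.36% of all transcripts did) and none toward the pineal gland, with a median departure of -0.54. Among 7 measured repressors, 3 departed toward the pineal gland (0.933% of all transcripts did) and none toward the retina, with a median of 0.472. PER3 (chromosome 21, 265014 to 280881 in the deposited tables, with no build named there) stood at 213, 216 and 167 CPM in the pineal gland and at 177, 237 and 192 CPM in the retina. The groups overlapped at CT4, whereas over the other times the retina was higher, with a pineal minus retina difference of -1.63. The departure was 1.60 ± 0.14 (SE, adjusted p = 2.57e-08). It was made of a pineal level 3.98-fold and a retinal level 1.31-fold above the mean of the other times, taken on the log2 scale. At CT0 the pineal mean was higher still, at 297 CPM against 199 CPM at CT4. The tissue difference was -0.17 at CT0 and -0.02 at CT4.

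PER2 showed the same arrangement. It stood at 283, 290 and 257 CPM in the pineal gland and at 310, 330 and 306 CPM in the retina, with every pineal value below every retinal value. Pineal levels at the other times ran from 18.5 to 291 CPM with a median of 58.2, and retinal levels from 124 to 358 CPM with a median of 204. PER2 thus stood near the top of its range in both tissues at CT4, and the pineal range was the wider. The departure was 1.20 ± 0.13 (adjusted p = 6.27e-07). CRY2 departed by only 0.22 ± 0.06 (adjusted p = 0.0306), and that call held when 1 of the 6 CT4 libraries was left out in only 1 of 6 cases. BHLHE40 and NR1D2, further repressors of the loop, had departures of 0.39 (adjusted p = 0.0537) and 0.61 (0.0622). Those of CRY4 and CRY1 were 0.47 (0.118) and -0.20 (0.101). DESeq2 called BHLHE40, NR1D2 and CRY1 (adjusted p = 0.0178, 0.0189 and 0.0448), the last toward the retina. With counts summed per gene, edgeR called them too (0.0297, 3.44e-05 and 0.00977). Of 16 alternative settings, BHLHE40 was called in 7, NR1D2 in 5, CRY1 in 3 and CRY4 in 0.

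NPAS2 (chromosome 1, 137452342 to 137500343) stood at 3.81, 3.59 and 3.12 CPM in the pineal gland, below all 15 pineal libraries of other times (0.630% of transcripts were so), which ran from 4.82 to 36.7 CPM. In the retina it stood at 48.6, 43.1 and 40.1 CPM, within its range of 29.3 to 91.6 CPM at other times. The retina was higher at every time, and the gap was widest at CT4: the departure was -1.81 ± 0.20 (adjusted p = 1.51e-06). ARNTL, better known as BMAL1, stood at 22.8, 23.2 and 26.5 CPM in the pineal gland against 99.6, 88 and 94.6 CPM in the retina, without overlap, and departed by -0.95 ± 0.12 (adjusted p = 7.4e-06). Its tissue difference was -1.96 at both CT0 and CT4, and its pineal mean was lower at CT0 (13.4 CPM) than at CT4 (24.2 CPM). ARNTL2, also below all 15 other pineal libraries, departed by -0.59 (adjusted p = 0.000568) and CLOCK by -0.49 (0.000668). The tissue difference of CLOCK was -0.664 at CT0 and -0.636 at CT4, and that of ARNTL2 was -0.612 and -0.797. RORA and RORB, nuclear receptors that activate ARNTL, had departures of -0.27 (adjusted p = 0.42) and -0.05 (0.88).

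Among the D-box factors, NFIL3, a repressor at these elements, stood at 11.1, 13.8 and 10.9 CPM in the pineal gland and at 41.1, 34.7 and 39.7 CPM in the retina, without overlap. At CT4 it was below the mean log2 level of the other times in both tissues, more so in the pineal gland. It departed by -0.65 ± 0.14 (adjusted p = 0.00489). It was not lower than at CT0 and CT20, where its means were 11.5 and 10.6 CPM in the pineal gland and 28.3 and 30.9 CPM in the retina. TEF and HLF, activators at the same elements, had departures of -0.12 (adjusted p = 0.65) and 0.03 (0.94). None of 7 measured clock kinases and F-box proteins departed in edgeR's test (3 at an unadjusted p under 0.05, and 0 with DESeq2 or limma).

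**Figure D3:**
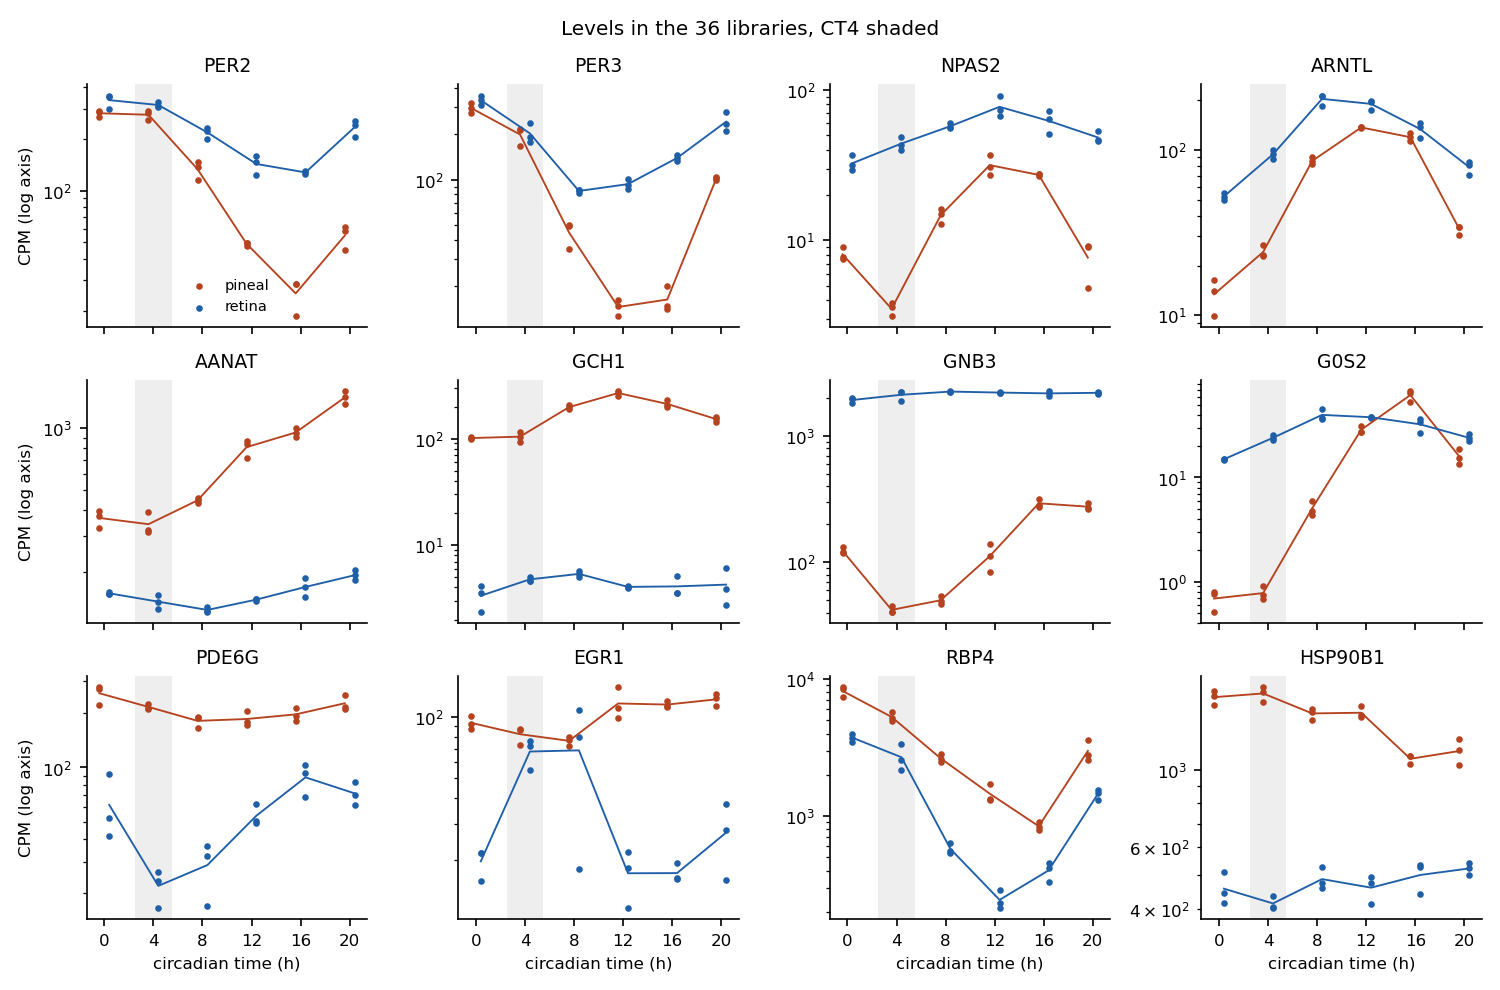
CPM on a log axis in all 36 libraries against circadian time, with pineal libraries in red, retinal libraries in blue, lines through the means of 3 libraries and CT4 shaded. At CT4 the pineal and retinal points of PER2 and PER3 lie close together, while NPAS2, GNB3 and G0S2 lie near their lowest pineal levels.

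All 9 measured members of the melatonin pathway were higher in the pineal gland at CT4 (34.8% of all transcripts were). Of them, 3 departed toward the retina (2.36% of all transcripts did). AANAT (chromosome 18, 4365296 to 4369121) stood at 319, 312 and 391 CPM in the pineal gland, at the foot of the 325 to 1510 CPM of the other times, and at 143, 132 and 154 CPM in the retina. The tissues did not overlap, but the difference at CT4 was 1.25 on the log2 scale against 2.16 over the other times, a departure of -0.92 ± 0.10 (adjusted p = 3.92e-07). At CT0 the difference of AANAT was 1.22, much as at CT4, with a pineal mean of 365 CPM against 341 CPM at CT4. GCH1, the first enzyme in the synthesis of the tetrahydrobiopterin cofactor that TPH1 needs, stood at 104, 93.9 and 115 CPM in the pineal gland and at 4.63, 5.06 and 4.61 CPM in the retina. It departed by -0.96 ± 0.18 (adjusted p = 0.00132). SLC7A5, a transporter of large neutral amino acids such as tryptophan, departed by -0.28 ± 0.06 (adjusted p = 0.0094, and 0.052 without pineal replicate 1). Its tissue difference was smaller at CT0 (1.49) than at CT4 (1.61), whereas that of GCH1 was larger at CT0 (4.93) than at CT4 (4.45).

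The departures of the other 6 melatonin genes were not called. TPH1, tryptophan hydroxylase, stood at 7490, 8810 and 10100 CPM in the pineal gland at CT4, against a median of 23900 CPM at other times, and was also low in the retina, at 66.1, 45.7 and 37.5 CPM against a median of 85.6 CPM. Its change was -1.14 in the pineal gland and -0.82 in the retina, both called (adjusted p = 8.38e-06 and 0.0107), and its departure of -0.32 was not (adjusted p = 0.57). DDC, which makes serotonin, behaved likewise, with -0.70 and -0.45 and a departure of -0.25 (adjusted p = 0.4). ASMT, the last enzyme, was higher at CT4 in the pineal gland by 0.46 (adjusted p = 0.000705), with a departure of 0.09 (adjusted p = 0.85). None of 21 measured cyclic AMP signalling genes departed in edgeR's test (1 at an unadjusted p under 0.05, and 0 with DESeq2 or limma).

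In phototransduction, 5 of 14 measured cone genes departed toward the retina (2.36% of all transcripts did). Toward the pineal gland, 1 cone gene and 1 of 9 rod genes departed (0.933% of all transcripts did). The cone count toward the retina was 2 without pineal replicate 1, pineal replicate 3 or retinal replicate 2. GNB3, the beta subunit of cone transducin (chromosome 1, 80401456 to 80410938), stood at 45, 40.7 and 40.2 CPM in the pineal gland, below all 15 other pineal libraries (47 to 320 CPM), and at 2220, 1910 and 2240 CPM in the retina. Its retinal levels at other times ran from 1820 to 2260 CPM, and its departure was -1.73 ± 0.11 (adjusted p = 1.23e-10). PPEF2, a protein phosphatase of photoreceptors, stood at 24.1, 29.3 and 28.1 CPM in the pineal gland against a median of 144 CPM at other times, and at 62.4, 41.8 and 48.9 CPM in the retina, and departed by -1.40 ± 0.16 (adjusted p = 1.94e-06). Its tissue difference was -0.925 at CT0 and -0.916 at CT4, and its pineal mean was lower at CT0 (13.2 CPM) than at CT4 (27.2 CPM).

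Several cone genes were higher in the retina at CT4 than the mean log2 level of its other times. By that test 7 of the 14 were higher at CT4 (0.553% of all transcripts were) and none was lower. The median retinal change was 0.268 against 0.00729 over all transcripts. CNGA3, the alpha subunit of the cone channel, was at 171, 199 and 225 CPM in the retina and at 134, 128 and 125 CPM in the pineal gland. It departed by -0.44 (adjusted p = 0.0292), and GRK7, the cone opsin kinase, and SLC24A2, a cone calcium exchanger, by -0.70 (0.0352) and -0.38 (0.0322). CNGB3, the partner subunit of CNGA3, departed the other way by 0.48 (adjusted p = 0.0331), with a pineal rise of 0.73 at CT4. In the retina CNGA3, GRK7 and SLC24A2 were higher still at CT0, with means of 225, 271 and 233 CPM against 198, 208 and 199 CPM at CT4. Their tissue difference was also wider at CT0 (-0.768, -5.01 and -2.41) than at CT4 (-0.622, -4.94 and -2.14). The retinal mean of CNGB3 was 173 CPM at CT0 and 175 CPM at CT4. CNGA3 and CNGB3 each kept their call in 1 of 6 fits that left out a CT4 library, and GRK7 and SLC24A2 in 2. ARR3, cone arrestin, rose in both tissues, by 0.88 in the pineal gland and 0.68 in the retina, with no called departure (adjusted p = 0.68). CNGB3, GRK7 and ARR3 were chosen after their values were seen.

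PDE6G, the inhibitory subunit of the rod phosphodiesterase, stood at 226, 211 and 213 CPM in the pineal gland and at 23.3, 26.2 and 16.6 CPM in the retina, where the other times ran from 17.1 to 103 CPM. The pineal level was within its usual range and the retinal level at the foot of its own, and the departure was 1.44 ± 0.25 (adjusted p = 0.000715). None of 7 non-visual opsins departed in edgeR's test, OPNP (-0.06, adjusted p = 1) included (2 at an unadjusted p under 0.05, 1 with DESeq2 and 0 with limma). Among 19 visual cycle and pigment epithelium genes, 2 departed toward the retina (2.36% of all transcripts did). These were BEST1, a chloride channel, by -1.27 (adjusted p = 0.0322), and LRAT, which esterifies retinol, by -1.10. LRAT reached 16.4, 28.7 and 16.3 CPM in the retina against a median of 7.25 CPM at other times. Its adjusted p was 0.253 without retinal replicate 2, 0.118 without pineal replicate 1 and 0.19 without pineal replicate 2, and BEST1 kept its call in 1 of 6 such fits. Of 13 photoreceptor and pineal transcription factors, 2 departed toward the retina (2.36% of all transcripts did). LIM3, a LIM homeobox factor, departed by -0.80 (adjusted p = 0.000379) and OTX2, a homeobox factor of both tissues, by -0.35 (0.0137). The adjusted p of OTX2 was 0.0739 without retinal replicate 2 and 0.0513 without pineal replicate 3.

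**Figure D4:**
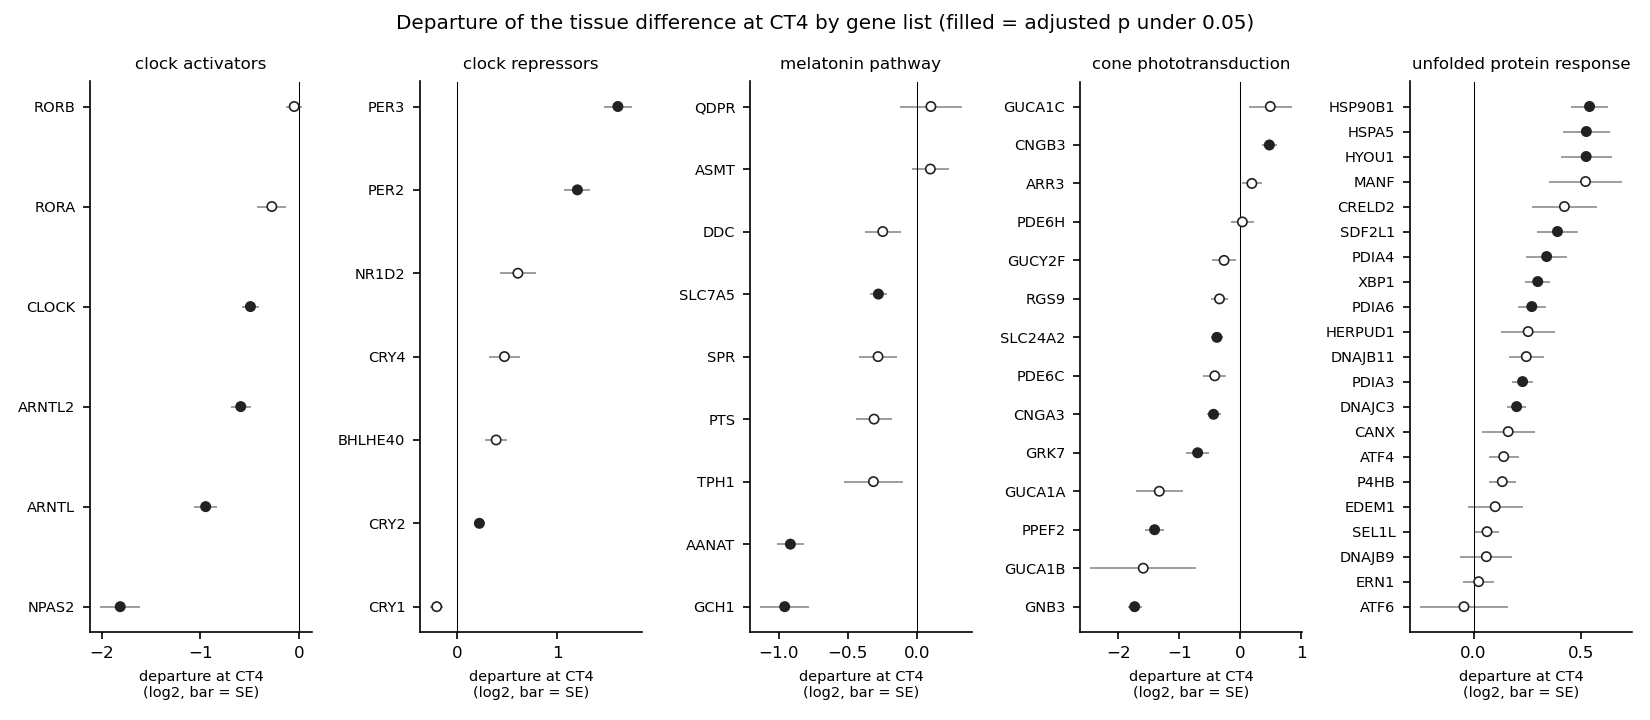
Departure at CT4 (log2, positive toward the pineal gland) with its SE for every measured member of 5 gene lists, filled where the adjusted p was under 0.05. Clock activators, 7 of 9 melatonin genes and most called cone genes lie to the left of 0, and the called clock repressors and unfolded protein response genes to the right.

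Chaperones of the endoplasmic reticulum departed toward the pineal gland. Of 21 measured unfolded protein response genes, 9 departed toward the pineal gland (0.933% of all transcripts did) and none toward the retina. The median departure was 0.246, and 18 of the 21 were higher in the pineal gland at CT4 (34.8% of all transcripts were). HSP90B1, the HSP90 of the endoplasmic reticulum, stood at 1670, 1720 and 1560 CPM in the pineal gland and at 402, 436 and 405 CPM in the retina, and departed by 0.54 ± 0.08 (adjusted p = 0.000161). The pineal values lay near or above the top of the range of the other times (1030 to 1680 CPM) and the retinal values near or below the foot of theirs (414 to 540 CPM). HSPA5, the HSP70 known as BiP, departed by 0.53 (adjusted p = 0.0045), XBP1, a transcription factor of this response, by 0.30 (0.00225) and PDIA3, a disulfide isomerase, by 0.23 (0.00763, and 0.0649 without retinal replicate 3). HSPA5 was higher still at CT0, with a pineal mean of 1090 CPM against 814 CPM and a tissue difference of 1.58 against 1.44. HYOU1, a chaperone outside the rule for named genes, stood at 254, 237 and 236 CPM in the pineal gland, above all 15 other pineal libraries (0.541% of transcripts were so), and departed by 0.53 (adjusted p = 0.00904, and 0.0739 without retinal replicate 2). The other 4 called members, PDIA4, PDIA6, DNAJC3 and SDF2L1, departed by 0.20 to 0.39. Without retinal replicate 2 the count of called members was 5. The summed level of 16 lymphocyte markers ran from 379 to 518 CPM in the pineal libraries at CT4 and from 169 to 506 CPM at the other times, with no defining marker at 0, and its part in these departures was not tested. None of 20 heat shock and cold-inducible genes or 22 cell division genes departed in edgeR's test (4 and 2 at an unadjusted p under 0.05, and 0 with DESeq2 or limma).

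Glucose metabolism departed in both directions. Of 19 measured glycolysis genes, all were higher in the retina at CT4 (32.0% of all transcripts were). Toward the retina 4 departed (2.36% of all) and toward the pineal gland 2 (0.933%). SLC2A1, the glucose transporter GLUT1, stood at 164, 171 and 173 CPM in the pineal gland, below all 15 other pineal libraries (205 to 407 CPM), and at 1370, 1380 and 1370 CPM in the retina. Its departure was -0.84 ± 0.07 (adjusted p = 1.21e-08). LDHA, lactate dehydrogenase, departed by -0.48 (adjusted p = 0.000147), whereas GAPDH and PGK1, enzymes of the middle of the pathway, departed by 0.31 (0.00122) and 0.26 (0.00751). The tissue difference of LDHA was -2.26 at CT0 and -2.24 at CT4, and that of PGK1 was -1.99 and -2.02. PGK1 had an adjusted p of 0.0576 without retinal replicate 2 and of 0.0572 without retinal replicate 3. The other 2 genes toward the retina were ENO2, an enolase, and PFKFB3, which makes an activator of glycolysis, at -0.90 (adjusted p = 0.0239) and -0.54 (0.0383), both chosen after their values were seen.

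In lipid metabolism, G0S2, an inhibitor of the triglyceride lipase PNPLA2 (chromosome 26, 2961681 to 2961980), was low in the pineal gland at CT4, at 0.897, 0.749 and 0.679 CPM, and stood at 23, 23.8 and 25.4 CPM in the retina. At other times the pineal level ran from 0.507 to 67.3 CPM. The pineal mean of G0S2 was 0.686 CPM at CT0 and 0.775 CPM at CT4, and its tissue difference was -4.41 and -4.91. The departure of -3.42 ± 0.20 (adjusted p = 6.64e-12) had the smallest p among the genes named here. With CT0 and CT8 as the reference times it was -1.22 and not called (adjusted p = 0.241). ACLY, which makes cytosolic acetyl-CoA, departed toward the pineal gland by 0.55 (adjusted p = 0.00197). Of 17 cholesterol synthesis genes, 15 were lower at CT4 in the pineal gland (4.68% of all transcripts were) and 4 in the retina (0.250%). Of the 17, 2 departed toward the retina (2.36% of all transcripts did). These were FDFT1, squalene synthase, and CYP51A1, lanosterol demethylase, by -0.48 (adjusted p = 0.00508) and -0.42 (0.0265). CYP51A1 kept its call in 2 of 6 fits that left out a CT4 library. At CT0 the tissue differences of FDFT1 and CYP51A1 were -1.94 and -0.902, further toward the retina than the -1.71 and -0.586 of CT4.

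Apart from CYTL1 and EGR1, the 12 largest departures toward the retina were of genes higher in the retina at CT4. In the pineal gland these genes were lower at CT4 than the mean log2 level of its other times. Both traits follow in part from the choice, which ranked genes by departure and asked for at least 5 CPM in the higher tissue at CT4. Several of them, such as GRIK3 and ESRRB, passed that level only through the retina. DOCK4, an exchange factor for small GTPases, stood at 9.42, 0 and 3.26 CPM in the pineal gland and at 177, 149 and 183 CPM in the retina, and departed by -2.74 ± 0.47 (adjusted p = 0.000568). KCNAB1, a potassium channel beta subunit, stood at 6.28, 8.83 and 6.11 CPM in the pineal gland, below all 15 other pineal libraries, and at 182, 186 and 192 CPM in the retina, and departed by -1.90 ± 0.24 (adjusted p = 7.36e-06). ESRRB, an orphan nuclear receptor, was also below every other pineal library, at 0.224, 0.15 and 0.272 CPM, and departed by -2.11 (adjusted p = 0.00306).

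FGF1, a growth factor, CALN1, a neuronal calcium-binding protein, and CNRV11, a cadherin-related neuronal receptor, departed by -1.72 (adjusted p = 0.0115), -1.70 (0.00423) and -1.81 (0.0496), all with pineal means under 2 CPM. CNRV11 kept its call in 1 of 6 fits that left out a CT4 library and FGF1 in 4. GRIK3, a kainate receptor subunit, had 2 counts over the 3 pineal libraries and 823 over the retinal libraries, a ratio of 492 (95% interval 136 to 4070, counting error only). Its departure of -3.62 ± 0.89 (adjusted p = 0.0183) had an adjusted p of 0.127 without pineal replicate 1 and 0.0624 without pineal replicate 3.

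CYTL1, a small secreted protein, had the most negative of the called departures named here, -3.72 ± 0.83 (adjusted p = 0.00788), and it rested on 1 library. It stood at 9.42, 9.13 and 6.66 CPM in the pineal gland and at 0.145, 6.37 and 0.288 CPM in the retina, where no library of another time exceeded 0.299 CPM. Only retinal replicate 2 was high, and without it the departure was -0.51 (adjusted p = 0.908).

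Toward the pineal gland, FNDC9, a fibronectin-domain protein, had the largest called departure, 1.77 ± 0.39 (adjusted p = 0.00779). It stood at 506, 438 and 406 CPM in the pineal gland, against a median of 112 CPM at other times, and at 0.868, 0.562 and 1.44 CPM in the retina. Its pineal mean was 453 CPM at CT0 and 450 CPM at CT4. The call was lost without retinal replicate 1 (adjusted p = 0.0548) or 2 (0.0524). MDGA1, a membrane-anchored protein of synapses, stood at 195, 190 and 190 CPM in the pineal gland and at 190, 158 and 190 CPM in the retina. The tissues overlapped at CT4, and the departure from a mean difference of -1.10 over the other times was 1.19 ± 0.09 (adjusted p = 5.96e-09). At CT0 the tissue difference of MDGA1 was 0.267 against 0.095 at CT4, and its pineal mean was 243 CPM against 192 CPM. CALB2, the calcium-binding protein calretinin, stood at 116, 99 and 115 CPM in the pineal gland against a median of 38.9 CPM at other times, and departed by 1.14 ± 0.19 (adjusted p = 0.000345). Its pineal mean was 124 CPM at CT0 and 110 CPM at CT4, and its tissue difference was -1.26 and -1.40.

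C12ORF53 departed by 1.10 (adjusted p = 0.00106), and was called as higher at CT4 in the pineal gland and not in the retina. CRABP1, which binds retinoic acid, departed by 0.99 (adjusted p = 0.0232) and kept its call in 2 of 6 fits that left out a CT4 library. DGKG, a diacylglycerol kinase, departed by 1.11 (adjusted p = 0.032) and kept it in 1. FAM164C departed by 1.20 (adjusted p = 0.0216) and kept it in 3. Its retinal values of 3.04, 1.5 and 0.433 CPM were spread more widely than its pineal values of 21.3, 22.3 and 23.8 CPM.

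The order of the tissues was reversed at CT4, with both differences called, for 40 transcripts (0.238%), 9 toward the pineal gland and 31 toward the retina. RCAN2, a regulator of calcineurin, stood at 119, 116 and 108 CPM in the pineal gland and at 90.2, 102 and 96.2 CPM in the retina, without overlap. Its difference was 0.25 at CT4 and -0.79 over the other times, a departure of 1.05 ± 0.09 (adjusted p = 3.06e-08), and the CT4 difference lost its call without retinal replicate 1 (adjusted p = 0.084). At CT0 the difference of RCAN2 was 0.406, further toward the pineal gland than at CT4. CLSTN3, a synaptic calsyntenin, stood at 356, 375 and 387 CPM in the pineal gland and at 553, 512 and 525 CPM in the retina, and departed by -0.56 ± 0.05 (adjusted p = 5.52e-08). Its mean difference over the other times was only 0.05 (adjusted p = 0.0213), so the tissues were nearly level there. At CT0 its difference was -0.74, further toward the retina than the -0.51 of CT4.

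ANO4, GABRR1 and TRIM67 were retina-high at CT4 and pineal-high in the mean of the other times. Their differences were -1.08, -1.01 and -0.56 at CT4 against 0.29, 0.31 and 0.66 over the other times. At CT0 they were further toward the retina than at CT4, at -1.26, -1.16 and -1.02. ANO4 belongs to the anoctamin membrane proteins, GABRR1 is a subunit of GABA receptors and TRIM67 belongs to the tripartite motif proteins. PPFIA4, a liprin, was reversed with a CT4 difference of only -0.25, which had the opposite sign and no call in the FPKM values (0.02 with a pseudocount of 0.1). Its difference in the counts was -0.629 at CT0.

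**Figure D5:**
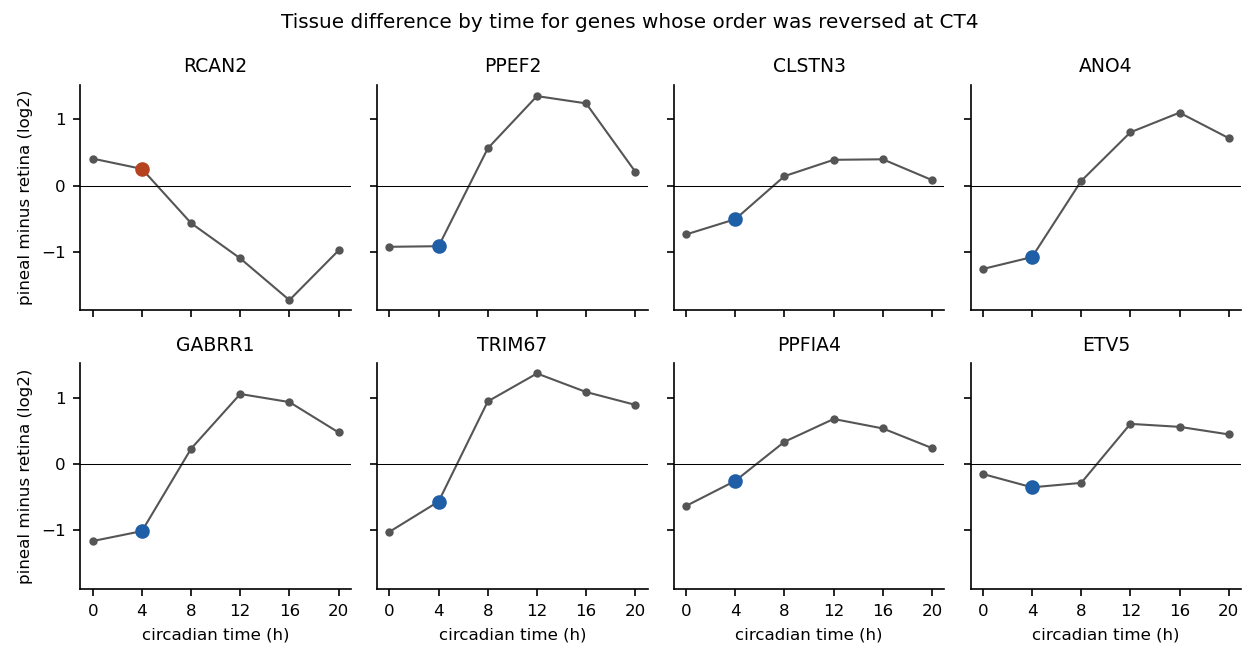
Pineal minus retina difference (log2) at each of the 6 circadian times for 8 named genes whose order was reversed at CT4, with CT4 enlarged. In all 8 genes shown CT0 lies on the same side of 0 as CT4, and CT12 to CT20 lie on the other side.

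Some departures carried a called rise at CT4 in the retina. EGR1, an immediate early transcription factor, stood at 76.1, 71.9 and 55.2 CPM in the retina, against a median of 19.3 CPM and a highest value of 108 CPM at other times, and at 72.9, 87.3 and 86.8 CPM in the pineal gland. The tissues overlapped, and the departure was -1.73 ± 0.36 (adjusted p = 0.00423). The retinal mean at CT8, 68.7 CPM, was as high as the 67.8 CPM of CT4. None of the other 10 measured immediate early genes departed. ETV4, an ETS transcription factor, stood at 12.7, 17.6 and 12.5 CPM in the retina, above all 15 other retinal libraries (0.285% of transcripts were so), and departed by -1.19 ± 0.18 (adjusted p = 0.000135). Its relative ETV5 departed by -0.59 (adjusted p = 0.000101). ETV4 and RBP4 were chosen after their values were seen.

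RBP4, the plasma carrier of retinol, was high at CT4 in both tissues. It stood at 5760, 4940 and 5170 CPM in the pineal gland and at 2550, 3340 and 2170 CPM in the retina, against medians of 2550 and 555 CPM at other times. Both means were higher still at CT0, at 8190 CPM in the pineal gland and 3740 CPM in the retina. The retinal rise of 1.77 exceeded the pineal rise of 1.14, a departure of -0.63 ± 0.16 (adjusted p = 0.0234), which was not called without retinal replicate 2 (adjusted p = 0.17), pineal replicate 2 (0.0801) or pineal replicate 3 (0.0778). The tissue difference of 0.978 at CT4 was near those at CT0, CT16 and CT20 (1.13, 1.07 and 1.05). It was larger at CT8 and CT12, at 2.2 and 2.57.

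Among markers of retinal neurons, 3 of 16 amacrine and horizontal cell genes, 1 of 7 bipolar cell genes and 2 of 11 ganglion cell genes departed (3.29% of all transcripts did). SLC6A9, a glycine transporter, stood at 16.1, 17.5 and 14.7 CPM in the pineal gland, where the median of the other times was 33.8 CPM, and at 541, 576 and 584 CPM in the retina, without overlap. It departed by -1.38 ± 0.16 (adjusted p = 2.4e-06), and PROX1, a homeobox factor of horizontal and other retinal cells, by -0.60 (0.00581). The tissue difference of SLC6A9 was -5.14 at both CT0 and CT4. STMN2 and NEFH, a stathmin and a neurofilament of neurons, departed toward the pineal gland by 0.44 (adjusted p = 0.00121) and 0.89 (0.0292). NEFH kept its call in 1 of 6 fits that left out a CT4 library. Of all 11 ganglion cell genes, called or not, 8 departures were negative and 3 positive, with a median of -0.0868. The summed level of 16 amacrine and horizontal cell markers ran from 278 to 298 CPM in the pineal libraries at CT4, with 1 marker at 0, and from 200 to 376 CPM at the other times. That sum holds CALB2, at a pineal mean of 110 CPM at CT4. The median pineal change of the 16 markers was -0.583, and 12 departures were negative and 4 positive. The sum of 7 bipolar cell markers ran from 452 to 479 CPM and from 395 to 593 CPM, with no marker at 0. Their median pineal change was -0.31, and 6 departures were negative and 1 positive. The part of these cells in the departures of retina-rich genes was not tested.

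Of the synaptic list, 4 of 14 genes departed (3.29% of all transcripts did). STX3 and PCLO, ribbon and active zone proteins, departed toward the pineal gland by 0.44 (adjusted p = 0.000284) and 0.42 (0.0377). CACNA1D, a calcium channel subunit, and SLC17A6, a vesicular glutamate transporter, departed toward the retina by -0.38 (0.00678) and -0.63 (0.0132). The tissue difference of CACNA1D was further toward the retina at CT0 (-1.25) than at CT4 (-0.83). PCLO kept its call in 2 of 6 fits that left out a CT4 library, and SLC17A6 lost it without pineal replicate 1 (adjusted p = 0.0527) or 3 (0.0883). MYH1, a muscle myosin, departed by -2.15 (adjusted p = 0.0415) at a retinal mean of 1.87 CPM, and kept its call in 1 of 6. No measured marker of Müller glia, myelin, lymphocytes, macrophages, blood cells, endothelium, fibroblasts or lens departed in edgeR's test, and none of 11 dopamine genes did. Over these and the other lists without a call, 14 in all with 169 members, 28 members had an unadjusted p under 0.05, DESeq2 called 5 and limma 1.

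A small set was also called at CT4 against the mean of CT0 and CT8, which is not a test against each of them. Against that mean, GNB3 departed by -0.93 ± 0.13 (adjusted p = 0.000672), NPAS2 by -1.65 ± 0.23 (0.000672), SLC2A1 by -0.56 ± 0.08 (0.000734) and KCNAB1 by -1.59 ± 0.26 (0.0042). Each was lower in the pineal gland, by 0.90, 1.62, 0.53 and 1.52, while its retinal change was between 0.02 and 0.07. The tissue difference of GNB3 was -5.66 at CT4, -5.49 at CT8 and -3.96 at CT0, so CT8 lay close to CT4. At CT4, CT8 and CT0 it was -3.64, -1.97 and -2.01 for NPAS2, -3.02, -2.4 and -2.52 for SLC2A1, and -4.73, -3.14 and -3.15 for KCNAB1. Others in this set, chosen after their values were seen, were CYP1B1, a cytochrome P450 (-0.70, adjusted p = 0.00187), ERBB4, a neuregulin receptor (-0.75, 0.00369), and KLF15, a Krüppel-like factor (-0.94, 0.00747). In the other direction stood CNTNAP5, a contactin-associated protein (0.59, adjusted p = 0.0459), and 1 transcript without a gene name.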

How the data were processed

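Per the labels' protocols, TRIzol and then RNeasy columns were used to extract RNA. Trimmomatic, TopHat and Cufflinks appear, with no version or role, in the submitters' processing notes. Neither genome build nor strand setting is given in those sources. The authors deposited estimated counts per Ensembl transcript, which need not be whole, and FPKM values, scaled by length and depth, for the 23352 transcripts of each table. Counts were rounded and fitted in edgeR 4.0.16 (R 4.3.3) by the quasi-likelihood method over all 36 libraries, with TMM scaling, filterByExpr and a mean for each of 12 groups. The departure at CT4 is the tissue difference at CT4 minus its mean over the other 5 times, and equals the pineal change minus the retinal change. Benjamini-Hochberg adjustment ran over the 16831 transcripts tested, with a threshold of 0.05. The SE is the log2 value over the square root of F. Levels in CPM use TMM-scaled library sizes. In counts simulated for the departure at CT4 over 16622 tested transcripts, 50.7% of 1.5-fold, 79.1% of 2-fold and 93.9% of 4-fold changes were called, and 10 of 16422 unchanged transcripts. The changed transcripts were drawn only from those above a floor of mean count, and only their pineal libraries of CT4 were changed. Each tissue otherwise had a flat level over time. These rates therefore do not cover transcripts near 0.

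The members and all 33 gene lists were chosen with earlier results of these data known. A symbol stands for its most counted transcript. Named are the 12 largest called departures each way with at least 5 CPM in the higher tissue at CT4, all clock, D-box and melatonin members, the 4 called members with the smallest p in every other list, the 10 reversed genes with the smallest p, and the 5 largest CT4 differences each way with at least 10 CPM and no overlap. Genes the rule selected that are not reported here were not replaced. Names came from the deposited tables, with 55 transcripts renamed and 38 named from RefSeq accessions, and 4385 have none. Estimated counts are split between transcripts, so values of close paralogs and overlapping genes are uncertain. No replicate pair at CT4 agreed within sampling noise (chi-square per degree of freedom 4.96 to 10.5). Alternatives were DESeq2 1.42.0 and its size factors, no filter, limma 3.58.1 on log2(FPKM + 0.1) and log2(FPKM + 1), counts summed per gene, a replicate block, leaving out each CT4 library, CT4 alone, CT0 and CT8 as reference, and leaving out 2 sets of 3 pineal libraries. For plots and summaries, matplotlib 3.10.9, numpy 2.4.6 and pandas 2.3.3 ran under Python 3.11.15.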

Additional observations from a re-analysis of the deposited data

Results flagged for a closer look

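The difference between the tissues was itself tested as the departure at CT4, and 157 transcripts passed toward the pineal gland and 397 toward the retina. For 3 of them the tissues also moved in opposite directions at CT4, each movement passing its own test. MPP4, a scaffold protein of photoreceptors, fell by 0.33 in the pineal gland and rose by 0.27 in the retina, a departure of -0.60 (adjusted p = 7.51e-05). It stood at 139, 131 and 129 CPM in the pineal gland and at 255, 253 and 269 CPM in the retina. PALM2, a paralemmin, fell by 0.21 and rose by 0.29, a departure of -0.50 (adjusted p = 0.000184). SCARB2, a lysosomal membrane protein, fell by 0.12 and rose by 0.15, a departure of -0.28 (adjusted p = 0.00152), and its retinal values of 163, 170 and 164 CPM lay above those of all 15 other retinal libraries. All 3 kept their departure call whichever CT4 library was left out, and none kept it with CT0 and CT8 as the reference times.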

How the results depend on the processing

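Counts of departures toward the pineal gland and toward the retina were 157 and 397 as reported. Toward the pineal gland they were 248 with DESeq2's test, 255 and 280 with limma on FPKM with a pseudocount of 0.1 and 1, and 2 with CT0 and CT8 as the reference times, which gave 20 toward the retina. The share pointing to the pineal gland was 28.3% as reported and 48.5% and 49.9% in the FPKM values. Within the pineal gland, where 563 were higher and 788 lower, limma on log2(FPKM + 1) gave 959 higher, and CT0 and CT8 as reference gave 25 and 91. Within the retina, where 93 were higher and 42 lower, DESeq2's test gave 173 and 84, limma on FPKM gave 79 and 68 lower with a pseudocount of 0.1 and 1, and CT0 and CT8 as reference gave 1 and 0. Behind that 0, from edgeR's test, 409 transcripts were lower at an unadjusted p under 0.05. Leaving out 1 CT4 library at a time gave 99 to 121 departures toward the pineal gland and 267 to 361 toward the retina. The lowest, 99, came without pineal replicate 2 and without retinal replicate 2. It gave 295 to 342 higher and 482 to 685 lower in the pineal gland, and 36 to 54 higher and 14 to 28 lower in the retina. CT4 difference counts were 5440 to 5595 higher in the pineal gland and 5153 to 5317 higher in the retina. Among named genes, CNGB3 and PPFIA4 had values that changed sign. CNGB3 departed by -0.07868 with CT0 and CT8 as reference, and the CT4 difference in FPKM with a pseudocount of 0.1 and 1 was 0.01579 and 0.01552 for PPFIA4. The cause of these changes was not tested.

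Replicate numbers were checked for pairing of the samples by correlating each library's deviations from its group mean. Same-numbered libraries had a median correlation of deviations of 0.00328, against -0.00077 for libraries with other numbers, and 3 of 198 same-numbered pairs exceeded 0.1. Of 36 libraries, 18 correlated best with their own number out of 3, and whether that exceeds chance was not tested. With a replicate block, 167 transcripts departed toward the pineal gland and 419 toward the retina. Leaving out 3 pineal libraries low in TTR gave 161 and 363, and leaving out 3 high in GAD67 gave 183 and 462. These settings were chosen after seeing the data, and no CT4 library is among those left out. Depth limits the genes near 0 in a tissue at CT4, such as GRIK3.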
